A study of Mus musculus with 15 samples.

Results

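The aldehyde dehydrogenase genes of mouse liver described here were 10 genes chosen by name, Aldh1a1, Aldh1a7, Aldh1b1, Aldh1l1, Aldh2, Aldh3a2, Aldh5a1, Aldh7a1, Aldh8a1 and Aldh9a1, of 19938 genes measured. Each was read by a single array probe set annotated with its symbol alone. The 15 arrays held RNA from 15 male mice aged 7.5 months: 3 PPARα-null mice given di(2-ethylhexyl) phthalate (DEHP), 4 PPARα-null controls given corn oil alone, 4 wild-type animals treated with DEHP and 4 wild-type controls on corn oil. DEHP, a phthalate plasticizer, went in by gavage in corn oil at 1150 mg/kg body weight per day in 4 daily doses. The nulls carried the germline allele of stock 129S4/SvJae-Pparatm1Gonz/J and the wild-type mice came from stock 129S1/SvlmJ, both kept inbred, so PPARα genotype and substrain of origin cannot be told apart. Values are listed by ascending label number of the animals, so animal 58 is the third wild-type DEHP mouse and KO_ctr_115 the first null corn oil mouse. The title of the series names PPARα and CAR as the receptors under study, so the question put to each gene was whether it answered DEHP with and without PPARα.

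Aldehyde dehydrogenases oxidize aldehydes to carboxylic acids with NAD+ or NADP+ as the acceptor, and in liver they clear aldehydes from alcohol, lipid peroxidation, retinol, membrane lipids, amino acids and folate. PPARα, a nuclear receptor, is activated by fatty acids and peroxisome proliferators and switches on fatty acid oxidation genes. The constitutive androstane receptor CAR is a nuclear receptor of xenobiotics that switches on drug-metabolizing genes such as Cyp2b10. For this description Aldh1a1 and Aldh1a7 were grouped as CAR-type and Aldh3a2 and Aldh9a1 as PPARα-type genes, and each name was checked against the values.

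All 10 genes were bright on these arrays. Mean intensity over the 15 arrays ran from 422 for Aldh1b1, above 87.05% of all genes, to 7152 for Aldh1a1, above 99.7%. Hepatocyte markers were bright in every group, with 6 of 8 measured and a summed intensity between 53850 and 58660 in any animal. The lowest value of any probe set was 1.77, so a marker above 0 is not thereby detected. The dimmest T and B cell marker averaged 11.15 in null DEHP mice. Array medians over all 35494 probe sets lay between 44.4 and 47.5. The targeted gene Ppara read 554, 617 and 558 in null DEHP mice, against 936, 773, 1197 and 751 in wild-type DEHP mice, and 508, 606, 549 and 517 in null corn oil mice, against 798, 932, 943 and 850 in wild-type corn oil mice. All nulls lay below all wild-type animals, but which part of the transcript the probe set reads was not known here, so a signal left in the nulls cannot be placed against the deletion.

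Promoter sequence is shown for the 3 genes that rose with DEHP in wild-type mice, since the first pair are neighbours that moved together and the third did not share their sequence. Of the 10 genes 8 had windows in the RefSeq table of build GRCm38.p6, with 9 start sites, and windows for Aldh2 and Aldh7a1 were not used here. The 250 bases before the start are printed 5′ to 3′ on the gene's strand, chr19:20601718-20601967 on the plus strand for the second of 2 listed starts of Aldh1a1, chr19:20727557-20727806 on the minus strand for Aldh1a7 and chr11:61267187-61267436 on the minus strand for Aldh3a2. Capitals mark the longest run that the Aldh1a1 and Aldh1a7 windows share and, in Aldh3a2, the motif GGGCGG, then the E-box CACGTG and nearest the start CCAAT.
Aldh1a1: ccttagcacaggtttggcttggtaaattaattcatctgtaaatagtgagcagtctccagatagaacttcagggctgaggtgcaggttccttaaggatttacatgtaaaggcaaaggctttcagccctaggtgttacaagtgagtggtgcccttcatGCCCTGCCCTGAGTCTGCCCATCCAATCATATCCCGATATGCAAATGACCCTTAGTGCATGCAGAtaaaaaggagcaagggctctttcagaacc
Aldh1a7: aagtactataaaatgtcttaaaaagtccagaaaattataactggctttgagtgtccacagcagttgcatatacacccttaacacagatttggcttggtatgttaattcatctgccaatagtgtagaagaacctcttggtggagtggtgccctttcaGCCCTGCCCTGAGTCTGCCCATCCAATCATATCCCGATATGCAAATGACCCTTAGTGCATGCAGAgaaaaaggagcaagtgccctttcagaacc
Aldh3a2: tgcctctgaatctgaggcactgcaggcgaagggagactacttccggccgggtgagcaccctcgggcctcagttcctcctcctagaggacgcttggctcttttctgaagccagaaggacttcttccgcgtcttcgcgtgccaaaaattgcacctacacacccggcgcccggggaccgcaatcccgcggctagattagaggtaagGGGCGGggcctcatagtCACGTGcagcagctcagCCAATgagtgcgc

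The shared run was 65 bases long and ended 30 bases before the start in both genes. Over the last 100 bases before the start 94 were identical between Aldh1a1 and Aldh1a7 without gaps, against 20 between Aldh3a2 and Aldh1a1 and 23 between Aldh3a2 and Aldh1a7. The other listed start of Aldh1a1 had a window whose longest run in common with Aldh1a7 was 8 bases. The run of 65 bases held CCAAT, bound by the factor NF-Y, and ATGCAAAT, the octamer of POU factors, at the same distances in both genes, 72 and 56 bases before the start. Searched on both strands with overlaps allowed, CCAAT stood in 33.9% of all 32851 RefSeq windows of this length and ATGCAAAT in 1.60%. Of the motifs marked in Aldh3a2, GGGCGG, bound by SP factors, stood in 32.7% of all windows and CACGTG in 6.02%. Among the other windows of the family ATGCAAAT was found in Aldh8a1. The direct repeat with 1 spacer base that PPARα binds, searched as AGGNCANAGGNCA, had 0 matches in the 9 windows and stood in 0.338% of all windows. The repeat with 4 spacer bases known for CAR, searched as AGGNCANNNNAGGNCA, also had 0 matches and stood in 0.213% of all windows, and the half-site AGGTCA was found in Aldh1l1 alone, against 14.0% of all windows. A missing match says only that these letters are not in these 250 bases.

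With DEHP 3 of the 10 genes rose in wild-type livers, Aldh3a2, Aldh1a7 and Aldh1a1, and none fell. Here and below a gene is said to rise or fall where p from limma, adjusted by Benjamini-Hochberg over all 19938 genes, was below 0.05. At the same threshold 2.29% of all genes rose in this comparison and 3.86% changed in either direction. The median log2 difference was 0.05 over the 10 genes and -0.015 over all genes, and 5 of the 10 lay above 0. In the null livers 1 of the 10, Aldh1a1, rose and none fell, where 0.16% of all genes rose and 0.471% changed in either direction. All 10 lay above 0 there, with differences from 0.06 to 0.43, a median of 0.19, and 0.014 over all genes. Yet 9 were not called, and the median over all genes is not matched for brightness. Under other processing settings the difference went as low as 0.0005 for Aldh7a1 and 0.02 for Aldh2.

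**Figure D1:**
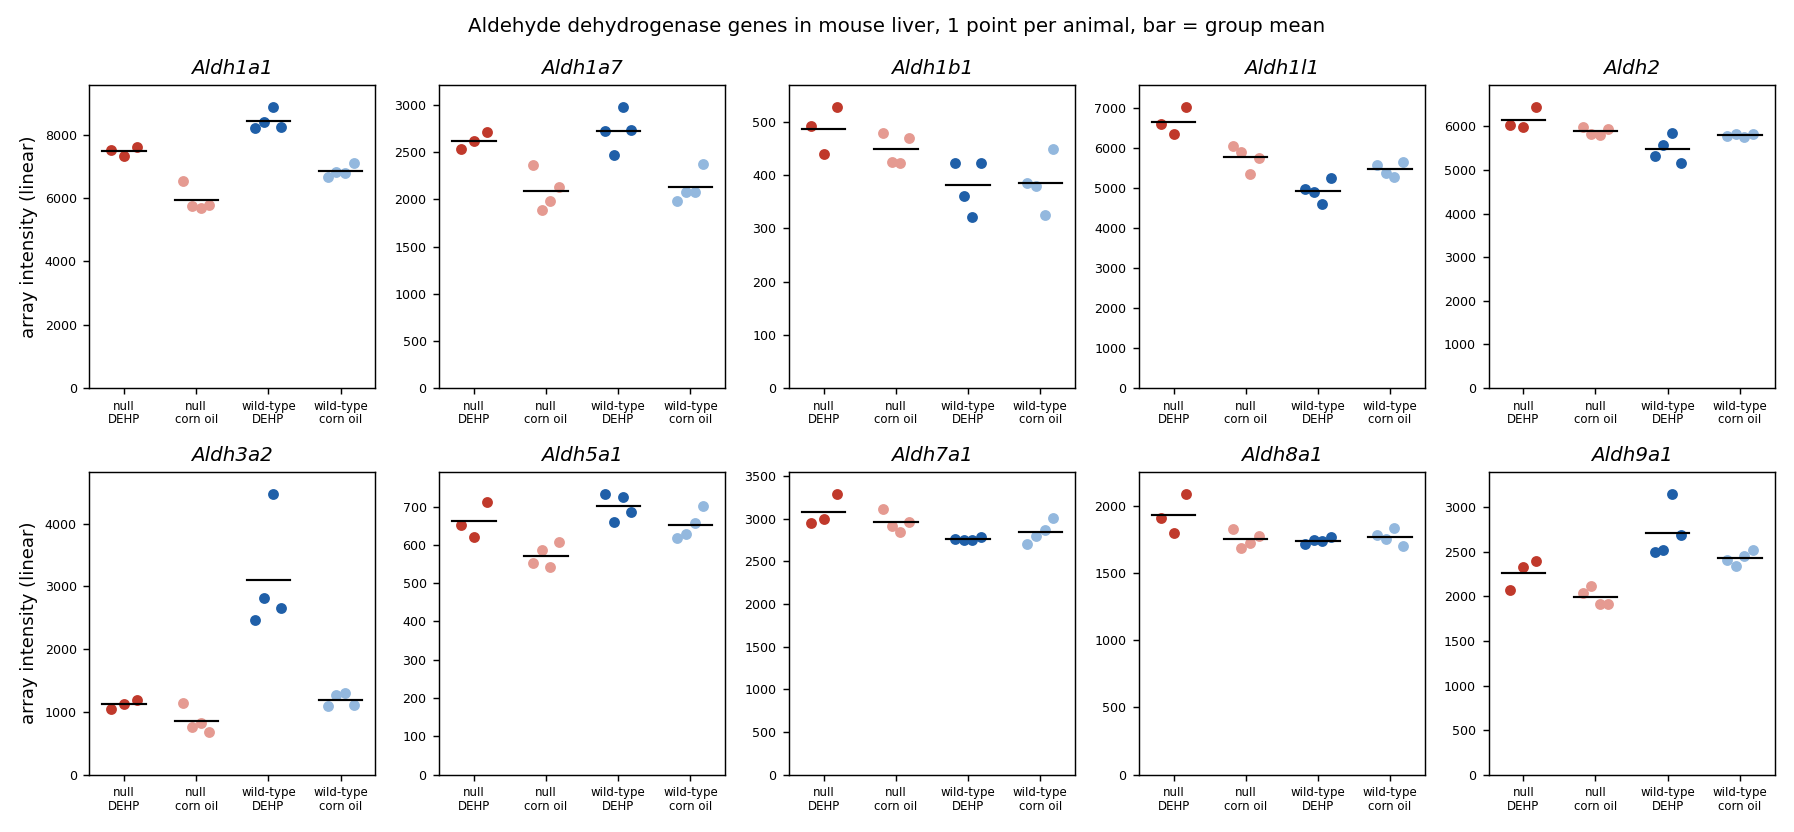
Linear array intensity (y axes, each from 0) of the 10 aldehyde dehydrogenase genes in the 4 groups on the x axes, 1 point per animal, with a bar at the group mean. The 4 wild-type DEHP animals stand clear of every other animal for Aldh3a2, between 2456 and 4470, while for Aldh1a1 and Aldh1a7 both DEHP groups lie above their corn oil groups.

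Aldh1a1, the cytosolic enzyme that oxidizes retinaldehyde to retinoic acid, was the brightest of the family. In null DEHP mice it read 7509, 7325 and 7621, against 6529, 5743, 5689 and 5775 in null corn oil mice. Wild-type DEHP mice read 8221, 8395, 8866 and 8232, and wild-type corn oil mice read 7119, 6786, 6808 and 6658. Both DEHP groups thus lay wholly above their own controls, and the order of the 4 group means was wild-type DEHP, null DEHP, wild-type corn oil, null corn oil, with no overlap between neighbours. The rise with DEHP was 0.34 ± 0.06 in null mice (log2 difference ± SE, 1.26-fold, n = 3 and 4, limma adjusted p = 0.0329) and 0.30 ± 0.06 in wild-type mice (1.23-fold, n = 4 and 4, limma adjusted p = 0.00699). The null response minus the wild-type response was 0.04, with a 95% confidence interval of -0.14 to 0.22 and adjusted p = 0.90 from limma. The wild-type call held whichever of the 8 animals was left out, with adjusted p at most 0.0262. The null call was lost without corn oil animal KO_ctr_117 or KO_ctr_118, the second null DEHP animal or the third, or wild-type corn oil animal 54, with adjusted p up to 0.112 without the second null DEHP animal, and it was lost at adjusted p = 0.262 when only the null arrays were fitted.

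Aldh1a7, a close paralog of Aldh1a1 found in rodents, lies beside it on chromosome 19 with 0 protein-coding genes between them. Null DEHP mice read 2535, 2617 and 2713, against 2368, 1885, 1978 and 2131 in null corn oil mice. Among wild-type mice the DEHP animals read 2721, 2471, 2976 and 2737, against 2374, 2077, 2082 and 1978 in corn oil animals. The groups did not overlap in either genotype. In wild-type mice the gene rose by 0.36 ± 0.08 (1.28-fold, limma adjusted p = 0.0198), and in null mice the difference was 0.33 ± 0.09 (1.26-fold), which did not pass (adjusted p = 0.0955). The test of the difference between the responses gave -0.03, with a 95% confidence interval of -0.28 to 0.22 (limma adjusted p = 0.952). The wild-type call was lost without corn oil animal 53, 54 or 55 or DEHP animal 58, with adjusted p up to 0.0665, and after quantile normalization (adjusted p = 0.0508). Which transcript bases the 2 probe sets cover was not known here, and how far each also reads the paralog was not tested.

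Aldh3a2, the fatty aldehyde dehydrogenase of the endoplasmic reticulum and peroxisome, oxidizes long-chain aldehydes from sphingolipid, phytol and ether lipid breakdown, and its loss causes Sjögren-Larsson syndrome in humans. It read 2456, 2822, 4470 and 2658 in wild-type DEHP mice, against 1110, 1308, 1269 and 1093 in wild-type corn oil mice. Null DEHP mice read 1053, 1122 and 1192, against 1138, 760, 821 and 682 in null corn oil mice. Every wild-type DEHP animal lay above every other animal, animal 58, also the highest for Ppara, far above the rest, and the null groups overlapped through corn oil animal KO_ctr_115. The wild-type rise was 2.53-fold (1.34 ± 0.17, limma adjusted p = 0.000262), and without animal 58 it was 1.15 with adjusted p = 0.000292. In null mice the difference was 0.43 ± 0.18 (1.34-fold, 95% confidence interval 0.04 to 0.81), which did not pass (limma adjusted p = 0.345), and without animal KO_ctr_115 it was 0.58 with adjusted p = 0.152. Null response minus wild-type response was -0.91 ± 0.25, with a 95% confidence interval of -1.44 to -0.39, and it too missed the threshold (limma adjusted p = 0.0879). The call was gained when only genes above the median intensity were tested (adjusted p = 0.0405).

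Aldh9a1, which makes the butyrobetaine precursor of carnitine by oxidizing trimethylaminobutyraldehyde, did not share the wild-type response of Aldh3a2. It read 2069, 2329 and 2398 in null DEHP mice, against 2039, 2121, 1915 and 1911 in null corn oil mice. Wild-type DEHP mice read 2494, 2521, 3148 and 2687, against 2519, 2458, 2340 and 2403 in wild-type corn oil mice. Within each genotype the treated and control animals overlapped, and animal 58 was again the highest of all. The differences were 0.18 ± 0.08 in null mice (limma adjusted p = 0.385) and 0.15 ± 0.08 in wild-type mice (limma adjusted p = 0.332), and without animal 58 the second was 0.08. Its responses in the 2 genotypes differed by 0.03, with a 95% confidence interval of -0.21 to 0.27. The data thus did not place Aldh9a1 beside Aldh3a2. Neither gene passed the test of the difference between responses. Some of the PPARα readouts given below did not pass it either, so it cannot decide the name. PPARα-type is thus not used below for either gene.

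**Figure D2:**
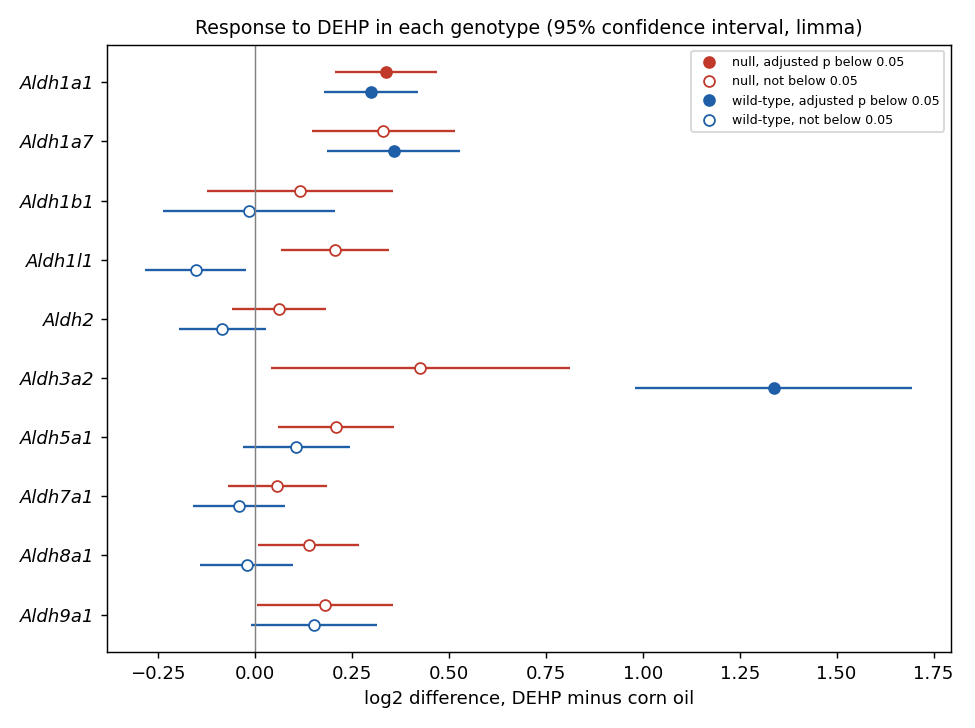
Log2 difference of DEHP minus corn oil (x axis) for the 10 genes (rows), in null (red) and wild-type mice (blue), with unadjusted 95% confidence intervals from limma and filled points where adjusted p was below 0.05. Aldh3a2 in wild-type mice, at 1.34, stands apart from all other values, and the null and wild-type intervals of Aldh1a1 and Aldh1a7 overlie each other.

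None of the other 6 genes passed the test of DEHP against corn oil in either genotype. The mitochondrial enzymes include Aldh2, the main acetaldehyde dehydrogenase of liver, Aldh1b1, which also accepts acetaldehyde, and Aldh5a1, which oxidizes succinate semialdehyde from GABA. Aldh2 read 6040, 5984 and 6439 in null DEHP mice, against 5808 to 5985 in null corn oil mice, and 5169 to 5846 in wild-type DEHP mice, against 5756 to 5819 in wild-type corn oil mice. Its differences with DEHP were 0.06 and -0.08 in null and wild-type mice, and the 95% confidence intervals ran from -0.06 to 0.18 and from -0.20 to 0.03. Aldh1b1, the dimmest member, lay between 441 and 528 in null DEHP mice, against 422 to 480 in null corn oil mice, and between 321 and 422 in wild-type DEHP mice, against 326 to 450 in wild-type corn oil mice. Aldh5a1 read 621 to 711 in null DEHP mice, against 542 to 608 in null corn oil mice, without overlap, and the difference of 0.21 ± 0.07 did not pass (limma adjusted p = 0.207). In wild-type mice Aldh5a1 read 660 to 732 with DEHP, against 617 to 701 with corn oil (0.11, adjusted p = 0.454).

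Aldh1l1, the cytosolic folate enzyme that turns 10-formyltetrahydrofolate into tetrahydrofolate and CO2, had responses of opposite sign in the 2 genotypes. It read 6599, 6354 and 7025 in null DEHP mice, against 6070, 5906, 5350 and 5766 in null corn oil mice. In wild-type mice the DEHP animals read 4970, 4898, 4595 and 5245, against 5669, 5279, 5375 and 5575 in corn oil animals. All treated nulls lay above their controls and all treated wild-type animals below theirs, yet neither difference passed (0.21 ± 0.07, limma adjusted p = 0.176, in null mice, and -0.15 ± 0.06, adjusted p = 0.207, in wild-type mice). Null response minus wild-type response was 0.36 ± 0.09, with a 95% confidence interval of 0.17 to 0.55 and limma adjusted p = 0.0682. That test passed under 3 other settings, with adjusted p = 0.0267 after adding 16 to each value, 0.0230 with only genes above the median intensity and 0.0315 with an intensity trend in the prior.

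Aldh7a1 oxidizes aminoadipate semialdehyde in lysine breakdown and betaine aldehyde, and Aldh8a1 oxidizes aminomuconate semialdehyde in tryptophan breakdown. Aldh7a1 lay between 2951 and 3286 in null DEHP mice, against 2841 to 3108 in null corn oil mice, and between 2743 and 2778 in wild-type DEHP mice, against 2705 to 3001 in wild-type corn oil mice. Aldh8a1 read 1799 to 2085 in null DEHP mice, against 1683 to 1823 in null corn oil mice, and 1712 to 1763 in wild-type DEHP mice, against 1700 to 1833 in wild-type corn oil mice. The treated and control animals overlapped in both genotypes for both genes. Counted over the family, 4 of the 10 genes had null DEHP animals wholly above the null controls, where 5.57% of all genes did. In wild-type mice 3 of the 10 did, where 6.1% of all genes did, and Aldh1l1 alone lay wholly below.

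None of the 10 genes passed the test of the difference between responses, which called 0.898% of all genes. By limma 2 had an unadjusted p below 0.05, Aldh1l1 and Aldh3a2, and the share of all genes that did was not counted. The wild-type response was thus larger than the null response for Aldh3a2 by an interval that leaves out 0 before adjustment, and for Aldh1a1 and Aldh1a7 the intervals run from -0.14 to 0.22 and from -0.28 to 0.22.

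Set against known readouts, Aldh3a2 had its larger estimate in wild-type mice, as the PPARα genes did. The fatty acid hydroxylases Cyp4a14 and Cyp4a10 and the peroxisomal enzyme Ehhadh read 0.13, -0.10 and 0.32 in null mice and 4.97, 3.07 and 2.92 in wild-type mice as log2 differences of DEHP minus corn oil, and these 3 passed the test of the difference between responses (limma adjusted p = 0.00257, 0.000157 and 4.84e-05). Of the 8 PPARα readouts measured 7 rose in wild-type mice and 0 were called in null mice, and 6 passed the test of the difference. The other two, Pdk4 (0.54 in null and 1.12 in wild-type mice) and Fgf21 (-0.36 in null and 0.13 in wild-type mice), did not. The CAR targets Cyp2b10 and Cyp2c55 went the other way, at 1.55 and 2.08 in null mice and 0.46 and 0.54 in wild-type mice, and passed the same test with null responses larger by 1.09 ± 0.22 and 1.54 ± 0.23 (limma adjusted p = 0.0308 and 0.00604). Of the 10 CAR readouts measured 5 were called higher in null mice and none lower, 1 higher and 2 lower in wild-type mice, and 4 passed the test of the difference, each with the larger value in null mice. Others did not share this pattern, among them Sult1d1 (-0.10 in null and -0.13 in wild-type mice) and Gadd45b (0.19 in null mice and a rise of 0.66 in wild-type mice). Aldh1a1 and Aldh1a7, with near-equal estimates in both genotypes, did not show the larger null response of those 4 CAR readouts. The rest of the 10 CAR readouts did not pass that test either, so it cannot decide the name. CAR-type is thus not used below for the pair. Cyp2b10 read 344, 480 and 300.02 in null DEHP mice, against 108 to 166 in null corn oil mice, and 321 to 465 in wild-type DEHP mice, against 280.3 to 305 in wild-type corn oil mice. Its null controls lay below all wild-type controls (-1.23 ± 0.15, limma adjusted p = 0.000269), and those of Aldh1a1 did so too, with a smaller difference that did not pass, given below. Neither receptor gene passed the test of DEHP against corn oil. Nr1i3, which encodes CAR, had log2 differences of 0.01 in null and 0.08 in wild-type mice, and Ppara had 0.08 in null and 0.03 in wild-type mice.

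**Figure D3:**
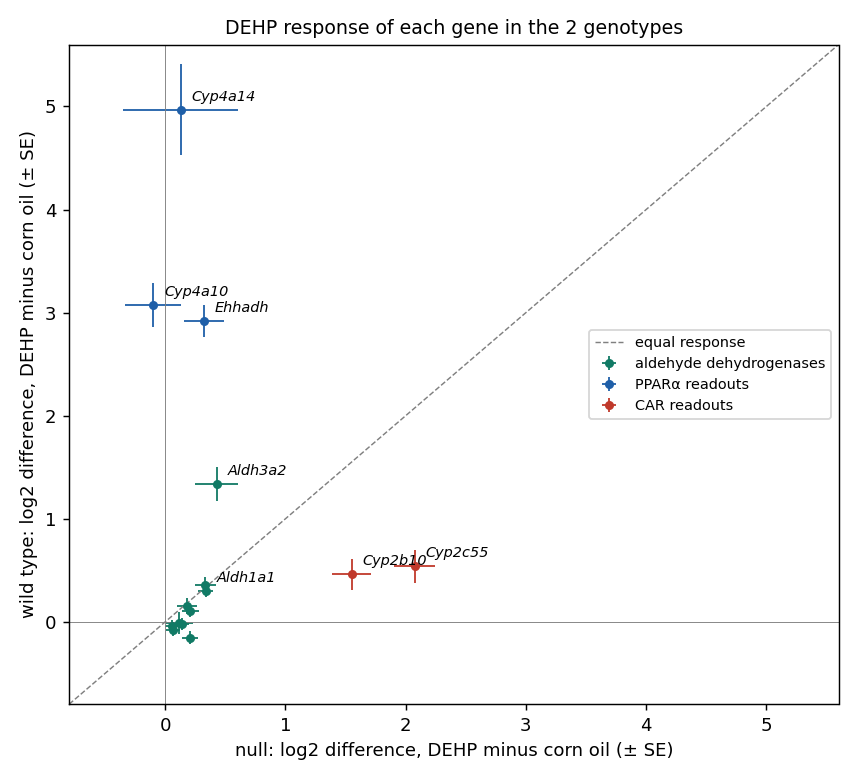
Log2 difference of DEHP minus corn oil in null (x axis) and wild-type mice (y axis), ± SE, for the 10 aldehyde dehydrogenases (green), 3 PPARα readouts (blue) and 2 CAR readouts (red), with a dashed line of equal response. Aldh3a2, at 0.43 and 1.34, lies on the side of the PPARα readouts, Aldh1a1, at 0.34 and 0.30, lies near the line, and Cyp2b10 and Cyp2c55 lie below it.

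The genotypes were next compared under each treatment. Among DEHP mice the nulls were lower in Aldh3a2 and higher in Aldh1l1, so 1 of the 10 genes was called lower, where 5.61% of all genes were, and 1 was called higher, where 5.09% were. Over both directions 10.7% of all genes were called, so 2 of 10 is not far from this background. Aldh3a2 averaged 1122 ± 69.3 in null DEHP mice and 3101 ± 924 in wild-type DEHP mice (SD, n = 3 and 4), a difference of -1.43 ± 0.18 (0.372-fold, limma adjusted p = 0.000141). Without wild-type animal 58 it was -1.24. Aldh1l1 averaged 6659 ± 340 in null DEHP mice and 4927 ± 267 in wild-type DEHP mice (SD, n = 3 and 4), a difference of 0.43 ± 0.07 (1.35-fold, limma adjusted p = 0.000567). Both calls held whichever of the 7 animals was left out. These comparisons share arrays with those of DEHP against corn oil, so they are not separate evidence of the same values.

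Aldh9a1 was lower in null than in wild-type animals under both treatments without overlap, but neither difference passed. It averaged 2265 ± 173 in null DEHP mice and 2713 ± 303 in wild-type DEHP mice (-0.26 ± 0.08, SD with n = 3 and 4, limma adjusted p = 0.0583), and 1997 ± 102 in null corn oil mice and 2430 ± 76.5 in wild-type corn oil mice (-0.28 ± 0.08, SD with n = 4 each, limma adjusted p = 0.0976). The DEHP value was -0.18 without animal 58. It passed after adding 16 (adjusted p = 0.0356), with only genes above the median intensity (0.0243) and with an intensity trend in the prior (0.0351), and the corn oil value passed above the median intensity (0.0463) and without animal 58 (0.0356) in limma. For Aldh1a1 the same differences, also without overlap, were -0.17 ± 0.06 (adjusted p = 0.0963) under DEHP and -0.21 ± 0.06 (adjusted p = 0.104) under corn oil in the limma fit. Corn oil animal KO_ctr_115 was the highest null control, and without it the second value was -0.25 with adjusted p = 0.0437. Aldh3a2 read -0.51 ± 0.17 in null minus wild-type corn oil mice (0.70-fold, limma adjusted p = 0.186). Other uncalled genes went the other way under DEHP, with all nulls above all wild-type animals. They were Aldh1b1 (0.36 ± 0.11, limma adjusted p = 0.0551), Aldh2 (0.17 ± 0.06, 0.0730), Aldh7a1 (0.16 ± 0.06, 0.118) and Aldh8a1 (0.15 ± 0.06, 0.148). The share of all genes without overlap between the genotypes was not counted, so such separations are not read as a trait of the family. Aldh1b1 passed with only genes above the median intensity (0.0253), and without the third null DEHP animal it read 0.28 (0.176). None of the 10 genes was called between the corn oil groups, where 1.19% of all genes were. By limma 5 had an unadjusted p below 0.05 between the corn oil groups and 8 between the DEHP groups. The share of all genes at that level was not counted, so these counts are not read as a result about the family.

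**Figure D4:**
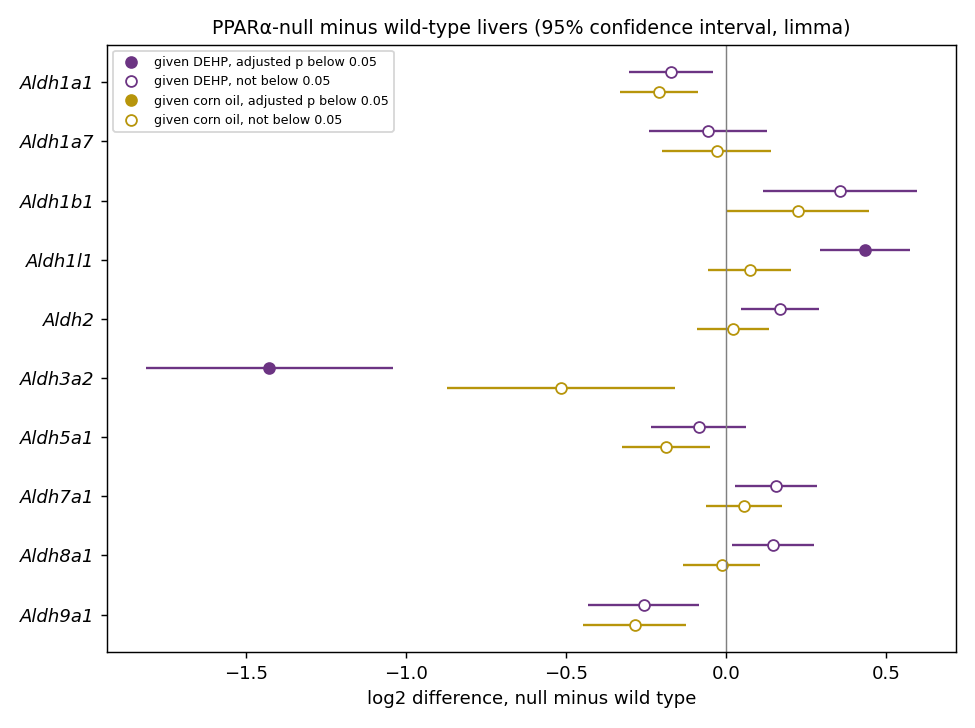
Log2 difference of PPARα-null minus wild-type livers (x axis) for the 10 genes (rows), given DEHP (purple) and given corn oil (ochre), with unadjusted 95% confidence intervals from limma and filled points where adjusted p was below 0.05. Aldh3a2 at -1.43 and Aldh1l1 at 0.43, both under DEHP, are the only filled points, and both values of Aldh1a1 and of Aldh9a1 lie below 0.

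Cell type markers moved with some of these groups. Of all genes 5.09% were called higher between the DEHP groups and 2.29% with DEHP in wild-type mice. In either direction 1.19% were called between the corn oil groups and 3.86% with DEHP in wild-type mice. Single markers called are to be read against these shares. Sums of linear intensities weigh the brightest marker most. Between null DEHP and wild-type DEHP mice, the summed intensity of 8 sinusoidal endothelial markers was 3268 to 3542 in null and 2561 to 2874 in wild-type mice, with 5 of 8 called higher. The sums of 8 stellate cell markers were 2556 to 3448 in null DEHP and 2143 to 2255 in wild-type DEHP mice, with 3 of 8 called higher. Those of 4 erythroid markers were 1667 to 2042 in null DEHP and 1050 to 1564 in wild-type DEHP mice, with 1 called higher, Alas2. In null DEHP and wild-type DEHP mice the highest mean of a single stellate marker was 1798 and 1317. For the erythroid markers it was 1699 and 1112. The median log2 difference was 0.46 over the stellate and 0.10 over the erythroid list. In the same comparison 1 of 6 hepatocyte markers, Apob, was called higher, by 0.32 ± 0.06. The median log2 difference of the 6 was -0.03, against 0.02 over all genes. The Kupffer cell marker Csf1r and the neutrophil marker Ly6g were called higher as well. Between null corn oil and wild-type corn oil mice, the sums of 8 Kupffer cell and macrophage markers were 2257 to 2810 in null and 1849 to 2169 in wild-type mice without overlap, with 1 called higher, Lyz2 (0.93 ± 0.17, limma adjusted p = 0.00894). The stellate sums were 2654 to 3897 in null corn oil and 2160 to 2495 in wild-type corn oil mice, also without overlap, and none of the 8 was called by limma. Between wild-type DEHP and wild-type corn oil mice, 8 neutrophil markers summed to 271 to 320.1 with DEHP and 197 to 232 with corn oil, with 1 called higher, S100a8. The highest mean of a single neutrophil marker was 110.9 and 34.7, and the median log2 difference of the 8 was 0.0005. Markers called lower with DEHP in wild-type mice were the endothelial Stab2 (-0.33 ± 0.06, limma adjusted p = 0.00337), the stellate Reln (-0.50 ± 0.10, adjusted p = 0.00762) and the erythroid Klf1 (-0.30 ± 0.07, adjusted p = 0.0197). The erythroid sums were 1050 to 1564 in wild-type DEHP and 1636 to 1688 in wild-type corn oil mice, without overlap, and the highest mean of a single marker was 1112 and 1481. No marker was called between null DEHP and null corn oil mice by limma, and no cholangiocyte or T and B cell marker in any comparison. The endothelial sums were nevertheless 3268 to 3542 in null DEHP and 2934 to 3256 in null corn oil mice, without overlap. In whole liver fewer cells of a type and less RNA per cell cannot be told apart, and the part of these cells in the results above was not tested.

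Of 11 other aldehyde dehydrogenase genes measured, 0 were called by limma with DEHP in either genotype. Their differences ran from -0.08 to 0.18 in null mice and from -0.18 to 0.25 in wild-type mice. The brightest were Aldh6a1, the methylmalonate semialdehyde dehydrogenase, with group means from 3476 to 3917, and Aldh4a1, which works in proline breakdown, with group means from 1724 to 1812. Aldh3b1 was the 1 gene called in any comparison, higher in null DEHP mice, at 90.9, 104 and 97.6, than in wild-type DEHP mice, at 52.4, 71.6, 80.6 and 52.5 (0.62 ± 0.16, limma adjusted p = 0.0181). Aldh1a2, the retinaldehyde dehydrogenase of stellate and mesothelial cells, had group means from 21.25 to 23.3.

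The genes most like Aldh3a2, Aldh1a1, Aldh1a7 and Aldh9a1 were sought among the 9969 genes above the median intensity, by the root mean square difference between log2 profiles over the 15 arrays, each centred on its mean. For Aldh3a2 they were Tmem98, Acsf2, an acyl-CoA synthetase, and Acaa1b, a peroxisomal thiolase, at distances of 0.20, 0.23 and 0.24 against 0.75 for the spread of Aldh3a2 itself. In wild-type mice their differences with DEHP were 1.32, 0.94 and 1.46, and in null mice 0.16, 0.60 and 0.24. For Aldh1a1 the nearest were Idh1, the cytosolic isocitrate dehydrogenase, Hadh, a mitochondrial enzyme of fatty acid oxidation, and Hsd17b12, an enzyme of fatty acid elongation, at distances of 0.06, 0.07 and 0.07. Aldh1a7 stood at rank 34 for Aldh1a1, at a distance of 0.10. The 3 genes nearest to Aldh1a7 were Lclat1, a lysocardiolipin acyltransferase, Gm13375 and Suclg2, a succinyl-CoA ligase subunit, at 0.08, 0.09 and 0.09, with Aldh1a1 at rank 17. For Aldh9a1 they were Acaa2, a mitochondrial thiolase, Ube2h, a ubiquitin-conjugating enzyme, and Dlst, a subunit of the oxoglutarate dehydrogenase complex, at 0.07, 0.08 and 0.09. Aldh3a2 stood at rank 9859 of 9969 for Aldh9a1, at a distance of 0.60. Its own spread was 0.75, against 0.19 for Aldh9a1, and this distance is not scaled for spread. Counted from Aldh3a2, the same distance put Aldh9a1 at rank 289, with Aldh1a1 at rank 226 and Aldh1a7 at rank 434.

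**Figure D5:**
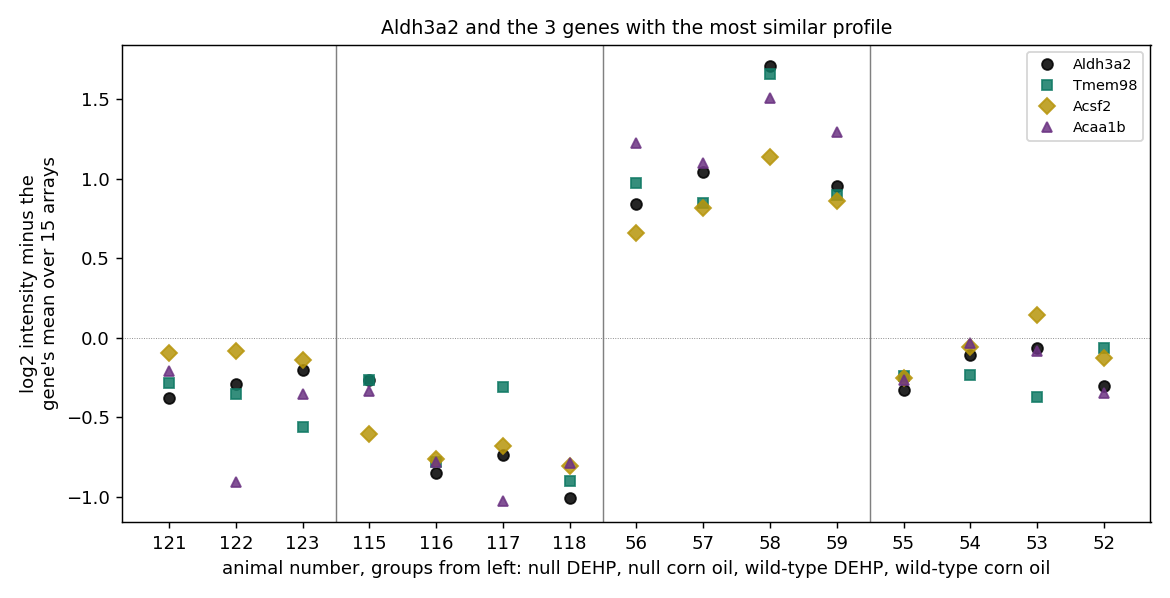
Log2 intensity minus the gene's mean over 15 arrays (y axis) in each animal (x axis, by label number) for Aldh3a2 and the 3 genes of most similar profile, with lines between null DEHP, null corn oil, wild-type DEHP and wild-type corn oil mice from left to right. All 4 genes are highest in the 4 wild-type DEHP animals, and each of the 4 genes is highest in animal 58.

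Pathway lists around these enzymes are read against the 0.471% of all genes called in null mice and the 3.86% called in wild-type mice. Of 30 measured retinoid metabolism genes, the surroundings of Aldh1a1, 1 fell and 0 rose in the nulls and 4 went up and 4 down in wild-type mice, with medians of 0.05 and 0.03. The retinol dehydrogenase Rdh5 fell in both, by 0.35 ± 0.07 (limma adjusted p = 0.0351) on the log2 scale in null and by 0.86 ± 0.06 (adjusted p = 7.2e-07) in wild-type mice. Its relatives Rdh16 and Rdh9 rose by 0.92 ± 0.10 and 0.71 ± 0.11 in wild-type mice. Rdh5 and Rdh16 passed the test of the difference between responses, at 0.51 ± 0.09 (limma adjusted p = 0.0178) and -0.71 ± 0.15 (adjusted p = 0.0316). Of 17 genes of fatty aldehyde, sphingosine and phytol breakdown, around Aldh3a2, 1 rose in null mice and 3 in wild-type mice, and none fell. Hacl1, the peroxisomal lyase that makes a fatty aldehyde from phytanic and other hydroxy acids, rose in both, by 0.53 ± 0.08 (adjusted p = 0.0140) in null and 0.51 ± 0.08 (adjusted p = 0.00111) in wild-type mice in the limma fit. The ceramidases Asah1 and Acer3 rose in wild-type mice by 0.29 ± 0.07 and 0.36 ± 0.09.

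None of 6 carnitine genes around Aldh9a1 was called with DEHP by limma in either genotype, with medians of 0.17 in null and 0.07 in wild-type mice. Among 24 other alcohol and aldehyde enzymes 0 changed in null mice, and in wild-type mice 3 went up and 2 down, of which 1, Akr1c13, also passed the test of the difference between responses (-0.57 ± 0.13, limma adjusted p = 0.0479). Akr1c13, an aldo-keto reductase, rose by 0.51 ± 0.09, while Gsta4, which conjugates hydroxynonenal, and the alcohol dehydrogenase Adh7, also in the retinoid list, fell by 0.63 ± 0.11 and 0.35 ± 0.07. Around Aldh5a1, 3 of 8 genes moved in wild-type mice, with 2 up and 1 down, the succinyl-CoA ligase subunits Suclg2 (0.36 ± 0.06) and Suclg1 (0.36 ± 0.08) and the GABA and betaine transporter Slc6a12 (-0.45 ± 0.06). Around Aldh7a1, 2 of 13 lysine and betaine genes fell in wild-type mice, Pipox (-0.29 ± 0.06) and Dmgdh (-0.39 ± 0.09). Around Aldh8a1, 1 of 13 tryptophan genes fell, Ido2 (-0.32 ± 0.08), and of 22 folate genes around Aldh1l1, Gcsh rose (0.41 ± 0.09) and Ftcd, which transfers the formimino group in histidine breakdown, fell (-0.28 ± 0.06). Of 10 genes of valine, proline and threonine breakdown 1 rose, Hibch (0.48 ± 0.06), and 2 fell, Prodh (-0.54 ± 0.08) and Dbt (-0.33 ± 0.08). None of the genes of these last 5 lists was called in null mice by limma, where medians ran from -0.03 to 0.05. Of the genes named from these lists, Slc6a12, Suclg1, Pipox, Ido2 and Prodh passed the test of the difference between responses. Null response minus wild-type response was 0.55, -0.60, 0.54, 0.69 and 0.53 for them, with limma adjusted p = 0.0145, 0.0208, 0.00963, 0.0142 and 0.0397.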

How the data were processed

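Liver RNA of 15 mice was hybridized to 1 single-colour array each. Per the labels' protocols RNA was isolated with a mirVana kit and 300 ng labelled with the Affymetrix WT kit. The deposited values are linear intensity per probe set, from 1.77 to 23336.67, already on a common scale. The normalization method was not stated in the sources at hand. They were analysed as log2 values without further normalization. Of 35494 probe sets 21789 had 1 symbol, 1621 several and 12084 none, and the brightest per symbol left 19938 genes. No arrays were identical, and each was taken as 1 animal from its label number. List genes were matched by symbol or gene identifier through RefSeq names of GRCm38.p6.

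Group means of all genes over the 15 arrays were fitted in limma 3.58.1 (R 4.3.3), with p values adjusted by Benjamini-Hochberg over all genes, a threshold of 0.05, and confidence intervals from the moderated SE (residual degrees of freedom 11, prior 4.68). The genes and lists were chosen with earlier results of these data known. The rule for naming took all 10 genes, the called family members, up to 3 called genes per list and DEHP comparison by smallest adjusted p, fixed readouts and the 3 most similar profiles. Alternatives were the mean of all probe sets, quantile normalization, adding 16 before log2, only genes above the median intensity, only the groups compared, a trended or robust prior, and each array left out. The procedure was tested on simulated data. The labels give no batch, slide or scan. The number of arrays limits the precision. Sequences are RefSeq's. Python 3.11.15 with pandas 2.3.3 made the tables and matplotlib 3.10.9 the figures.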

Additional observations from a re-analysis of the deposited data

Results flagged for a closer look

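Among the 30 combinations of a gene and a group of 4 animals, 1 held an animal far from the rest, and by its construction the 95% limit used flags about 1 in 20 groups by chance. Null corn oil animal KO_ctr_115 read 6528.55 for Aldh1a1, while the other 3 null controls lay between 5689 and 5775, and its gap to the nearest was 89.1% of the group's range. The same animal was the highest null control for Aldh1a7 (2368), Aldh3a2 (1138), Aldh1b1 (480), Aldh1l1 (6070), Aldh2 (5985), Aldh7a1 (3108) and Aldh8a1 (1823), and for the PPARα target Cyp4a14 (107). Without it the response of Aldh1a1 to DEHP in null mice was 0.38 with limma adjusted p = 0.0220.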

How the results depend on the processing

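Of 1090 refits of a single gene of the family, 1049 stayed on their side of the threshold with any called direction, 11 lost a call, 30 gained one, and no called value changed sign. Of the 928 not called either way 15 changed sign. In wild-type mice the number of family genes that responded stayed within 1.5 times of 3. In null mice it was 2 with only genes above the median intensity, 0 with only the 2 groups compared, and 0 to 1 with an array left out. For the difference between responses, with 0 called, it was 1 after adding 16, 2 above the median intensity and 1 with a trended prior. Between corn oil groups, also 0, it was 1 after adding 16, 2 above the median intensity and 0 to 1 with an array left out. Between DEHP groups, 2 as reported, it was 4 after quantile normalization, 7 after adding 16, 7 above the median intensity and 5 with a trended prior.

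Counts over all genes moved more. In null mice 94 became 287 after adding 16, 427 above the median intensity, 1 with only the 2 groups compared, 274 with a trended prior, and 9 (without the second DEHP animal) to 168 (without corn oil animal KO_ctr_116) with an array left out. In wild-type mice 770 became 433 (without corn oil animal 53) to 812 with an array left out, and 667 (only the 2 groups compared) to 1101 (above the median intensity) under the other settings. For the difference between responses 179 became 418 after adding 16, 570 above the median intensity, 404 with a trended prior and 61 (without wild-type corn oil animal 53) to 299 (without null corn oil animal KO_ctr_116) with an array left out. Between DEHP groups 2133 became 1331 with only the 2 groups compared and 1019 (without the second null animal) to 2259 with an array left out, and at most 2766 (above the median intensity). Fewer genes tested, or fewer arrays, account by construction for part of the filter and leave-out changes, and for the rest the cause was not tested. No scaling moved the median of all genes by over 0.1. No paired analysis was possible because the animal numbers of the groups are all different.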
